A study of Mus musculus with 6 samples.

Results

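Heat shock proteins and the chaperones of the cytosol were followed in mouse hepatocytes before and after partial hepatectomy (PHx), an operation in which most of the liver is cut away and the remnant regrows. The set holds 38 genes, chosen by gene name, of the 55450 genes in the count files, and all 38 were among the 17037 genes with enough reads to test. They comprise 8 genes of the HSP70 and HSP110 family, 7 of HSP90 and its co-chaperones, 4 small heat shock proteins, 2 of the mitochondrial chaperonin, 8 J-domain proteins with Bag3, 2 heat shock factors and 7 subunits of the CCT chaperonin. Bulk RNA-Seq was done on 6 hepatocyte preparations, 3 at 0 hours (undamaged liver, as the study describes it) and 3 at 48 hours after PHx. Both groups were C57BL/6 mice on a normal diet, 10 to 12 weeks old by the labels, with no transgene or deletion named. The study's methods name them as male C57BL/6J mice and give a slightly younger age. In both, the cells were freed by collagenase perfusion of the liver before RNA was extracted with TRIzol, so each library is a preparation enriched for hepatocytes and not a sorted population. In such bulk samples, fewer cells of a type and less RNA per cell cannot be told apart.

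Chaperones bind proteins that are not yet folded, or have lost their fold, and keep them from aggregating. HSP70 proteins take hold of short greasy stretches of a client and spend ATP to do so, J-domain proteins bring them the client and start that cycle, and exchange factors such as the HSP110 protein Hsph1 and Bag3 end it. HSP90 acts later and on fewer clients, among them steroid receptors and kinases, with co-chaperones that set the order of its steps. The CCT ring folds actin, tubulin and some cell cycle proteins inside a closed chamber, and the Hspd1 and Hspe1 ring does the same for proteins imported into mitochondria. Under heat or other protein damage, the factor Hsf1 binds heat shock elements, inverted repeats of the letters GAA, and raises the inducible members, while constitutive members are made in every cell.

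Total gene counts ranged from 31419443 to 36346220 per library, so that 3 counts, taken as the floor, correspond to 0.0839 to 0.102 CPM, the count scaled to a common library total after TMM normalization. Since molecules were not tagged before amplification, this floor covers counting error alone. The lowest member count in any library was 13, for Hspa1a. Reads on no gene made up 24.3% to 32.7% of the reads in the files, with the highest share in replicate 2 at 0 hours, and mitochondrial genes took 5.42% to 6.66% of gene counts. Hepatocyte markers were the most abundant of the lists checked, with a summed 101829 to 121166 CPM over 8 genes at 0 hours and 63500 to 72879 CPM at 48 hours, and 4 of the 8 fell. Endothelial markers fell in 8 of 8 genes, from a summed 198 to 307 CPM to 141 to 155 CPM. Kupffer cell markers summed to 61.6 to 94.1 CPM and then 94.7 to 117 CPM, with 2 of 8 higher. Stellate cell markers summed to 71.3 to 114 CPM and 59.9 to 74.1 CPM, with 1 of the 7 tested higher and 1 lower. Cholangiocyte markers summed to 9.15 to 20.7 CPM and 16.3 to 26.0 CPM, almost all of it from Sox9 and Spp1, with 1 of the 2 tested higher. None of the 7 neutrophil markers had enough reads to test and Mpo was at 0 in all libraries. Among the 6 erythroid markers only Alas2 was tested and it fell, and Hbb-bt was at 0 throughout. The part these other cells had in the chaperone values was not tested.

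Heat shock elements are shown first, because they are the sequence feature by which the family is known. RefSeq promoters on GRCm38.p6, running from 250 bases before to 50 bases after the start of transcription, were matched for 31 of the 38 genes by symbol. Hspa8, Hspa9, Hsp90aa1, Hsp90ab1, Cryab, Hsf1 and Cct4 had no entry in the table. In the stretches printed, 5′ to 3′ on the gene's strand, capitals mark the letters GAANNTTC or TTCNNGAA, a pair of inverted GAA units, or a longer run of such units. The pair reads the same on both strands. The first set is the shared promoter of the mitochondrial chaperonin genes, which lie head to head on chromosome 1, and the promoter of Dnajb6, since these carry a triple, in which 1 more inverted unit follows a pair at the same spacing of 2 bases, searched on both strands. Every triple holds overlapping pairs by construction.
Hspe1, chr1:55088053-55088082, plus strand: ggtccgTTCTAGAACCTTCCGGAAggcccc
Hspd1, chr1:55088053-55088082, minus strand: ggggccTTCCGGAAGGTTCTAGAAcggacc
Dnajb6, chr5:29735846-29735870, plus strand: ctccgaGAATCTTCCGGAAcgctag
The Hspd1 stretch is the reverse complement of the Hspe1 stretch, so both genes share 1 run of units. The run lies in an untranslated exon of an annotated Hspd1 transcript and starts 89 bases before the Hspe1 start. The Dnajb6 stretch lies in an untranslated exon of Dnajb6 and, on the other strand, in a coding exon of Gm5129.

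The second set shows the promoters of heat-inducible genes whose levels varied most between libraries, and of 3 genes that rose after PHx and hold a single pair.
Hspa1a, chr17:34972233-34972280, minus strand: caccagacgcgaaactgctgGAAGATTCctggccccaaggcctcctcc
Hspa1b, chr17:34959315-34959362, minus strand: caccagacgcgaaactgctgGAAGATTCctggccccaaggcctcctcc
Hspb1, chr5:135887782-135887849, plus strand: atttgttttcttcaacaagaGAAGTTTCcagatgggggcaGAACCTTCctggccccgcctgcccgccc
Hspb6, chr7:30553161-30553208, plus strand: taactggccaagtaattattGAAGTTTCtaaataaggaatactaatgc
Cct2, chr10:117063390-117063437, minus strand: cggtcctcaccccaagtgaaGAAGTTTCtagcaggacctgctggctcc
Cct5, chr15:31601867-31601886, minus strand: ggccgaTTCCAGAAgctact
The Hspa1a and Hspa1b stretches are identical in 48 of 48 bases. In both, the pair starts 104 bases before the start of transcription and no annotated gene overlaps it. The Hspb6 and Cct2 stretches are intronic to longer transcripts of the same genes, and that of Cct5 lies over an exon of the neighbouring gene Fam173b.

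At least 1 pair was found in any promoter of 15 of the 31 genes (48.4%), against 17.0% of the 27025 genes of the table and 9 of 56 further chaperone genes (16.1%). Counted by promoter, 17 of 42 held a pair (40.5%), against 15.1% of 32851. Cct2, Cct5, Hspb6, Hspd1, Dnaja1 and Dnajb4 each also had a promoter without a pair. A triple was found in 4 of the 31 (12.9%), those of Dnajb6, Hspd1, Hspe1 and Hsph1, against 0.662% of all genes. The run shared by Hspd1 and Hspe1 is counted here for each gene, as is the identical pair of Hspa1a and Hspa1b. The Hsph1 triple lies after its start of transcription. These are matches of letters, counted without regard to whether Hsf1 binds there.

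At 48 hours after PHx, 13 of the 38 genes were higher and 1 was lower than at 0 hours by edgeR's quasi-likelihood test at an adjusted p under 0.05, and 24 did not pass. Over all genes tested, 21.4% were higher and 19.3% were lower (40.7% in either direction), against 34.2% and 2.63% of the chaperone genes. All 3 libraries at 48 hours lay above all 3 at 0 hours for 16 chaperone genes, and below for 3, where 27.8% and 25% of all genes did so (52.7% in either direction). The median log2 fold change of the 38 genes was 0.24, with 26 above 0, while that of all genes was -0.0033. Without replicate 2 at 0 hours, which held the lowest of the 3 values for 23 of the 38 genes (and for 40.1% of all genes), 12 were higher and 2 were lower. Over the 14 alternatives given at the end, 10 to 18 were higher and 0 to 4 were lower. Among the genes called, a log2 fold change of 1 or more was reached by 3 of the 38, namely Fkbp5, Hspa2 and Hspa14, and none was lower by that much, where 9.69% of all genes were called higher and 7.94% lower at that size.

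**Figure D1:**
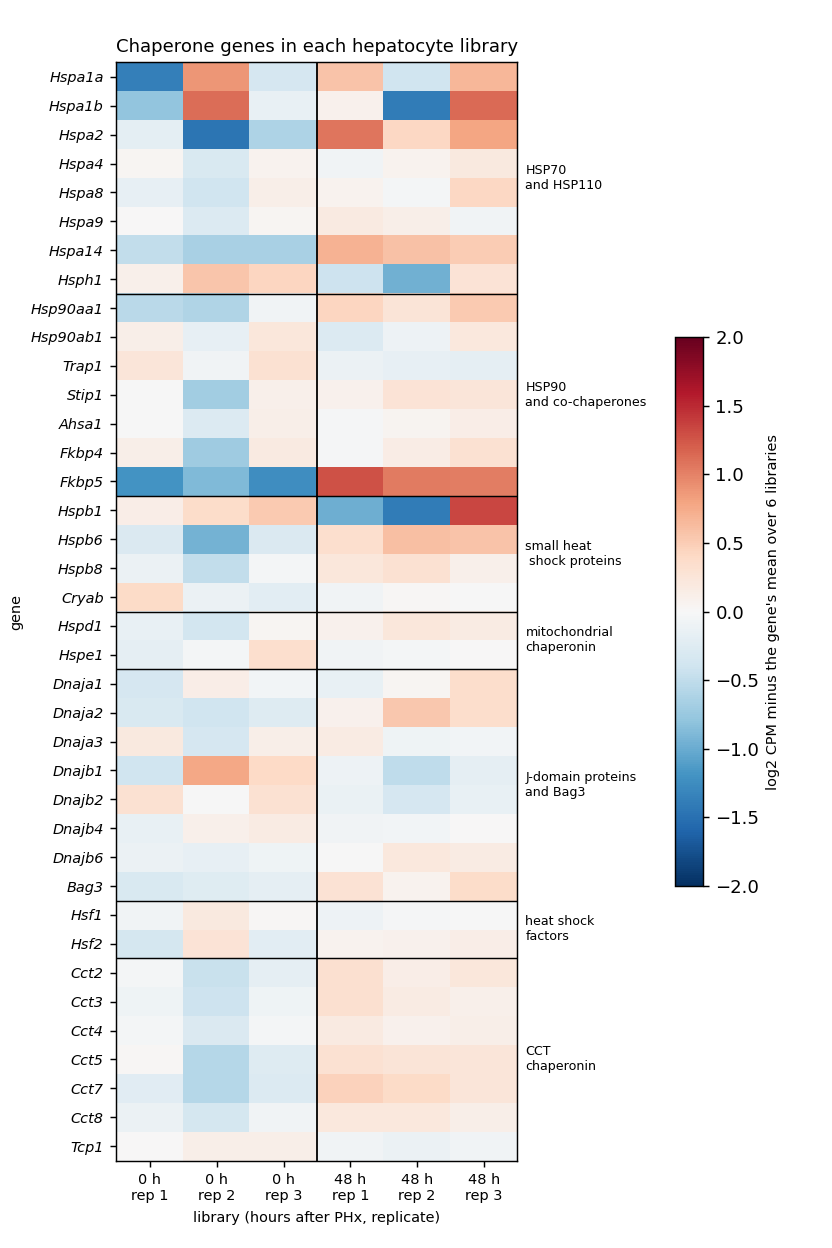
Level of each of the 38 chaperone genes in each of the 6 libraries, as log2 of CPM relative to the gene's mean over all 6 (colour scale), with genes grouped by role and the 3 libraries of 0 hours to the left of those of 48 hours after PHx. Fkbp5, Hspa2 and Hspa14 separate the time points most, whereas Hspa1a, Hspa1b and Hspb1 vary as much within a time point as between them.

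**Figure D2:**
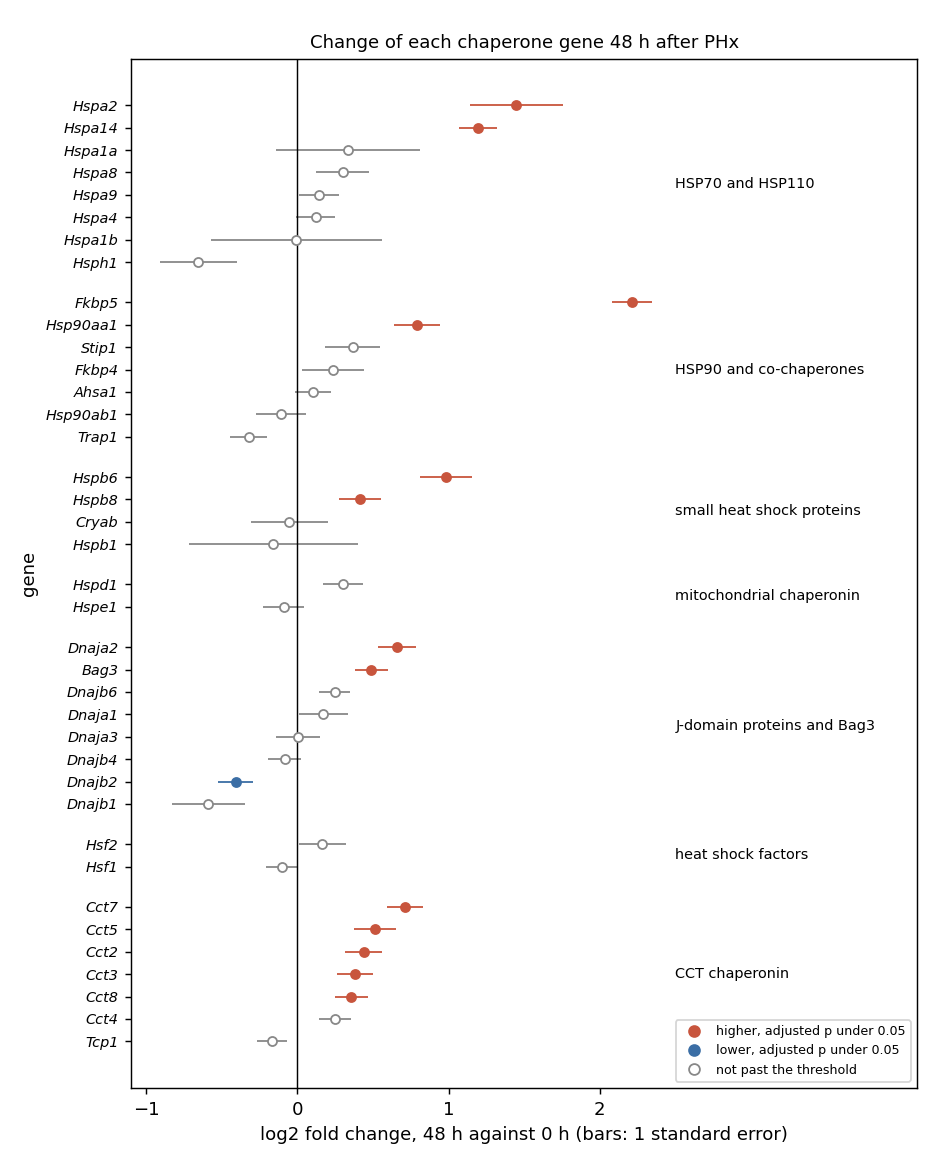
Log2 fold change at 48 hours against 0 hours for each of the 38 chaperone genes, grouped by role, with bars of 1 standard error from the quasi-likelihood fit (n = 3 libraries per time point). The 13 higher genes run from 0.36 for Cct8 to 2.21 for Fkbp5, and the 1 lower gene, Dnajb2, is at -0.41.

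Summed over the 38 genes, the level was 3467 ± 411 CPM (SD, n = 3) at 0 hours and 3983 ± 287 CPM at 48 hours, and the libraries overlapped. Per kilobase of exon (RPKM, in which genes can be set beside each other), the cells at 0 hours held most Hsp90ab1, at 187 ± 25.3 RPKM (SD, n = 3), and Hspa8, at 184 ± 32.6 RPKM. These are the constitutive forms of HSP90 and HSP70 in the cytosol. Next in order came Hspb8 at 88.2 ± 14.1 RPKM, Hspd1 at 72.8 ± 10.3 RPKM and Hspa9, the HSP70 of mitochondria, at 59.0 ± 6.70 RPKM. Hsp90ab1 and Hspa8 differed by less than the sum of their SDs, as did Hspb8 and Hspd1, and Hspd1 and Hspa9. At the other end stood Cryab at 0.801 ± 0.185 RPKM, Hspa2 at 0.484 ± 0.195 RPKM and Hspa1a at 0.387 ± 0.287 RPKM, where neighbours in the order again differed by less than the sum of their SDs. RPKM was computed over the union of annotated exons, which is long for genes with many isoforms, such as Cct7 at 6778 bases, and lowers their value.

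In the HSP90 group, 2 of 7 genes rose, none fell, and 5 did not pass, where 21.4% of all genes tested rose. Fkbp5 encodes an immunophilin that holds HSP90-bound steroid receptors, the glucocorticoid receptor above all, in a form with low affinity for hormone. It lies on chromosome 17 (28399094 to 28517527, minus strand, GRCm38). Its level was 9.43, 11.6 and 9.03 CPM in replicates 1 to 3 at 0 hours and 51.8, 44.1 and 43.4 CPM at 48 hours. The 3 later libraries all lay far above the earlier ones, the largest change among the 38. The log2 fold change was 2.21 ± 0.133 (SE), or 4.64-fold, with an adjusted p of 7.33e-07. Its counterpart Fkbp4, which helps the same receptors to bind hormone and move to the nucleus, was at 113, 63.9 and 118 CPM at 0 hours and 102, 115 and 129 CPM at 48 hours. Those values overlapped and the difference did not pass (0.23 ± 0.205 on the log2 scale, adjusted p = 0.394). The ratio of Fkbp4 to Fkbp5 RPKM went from 34.5 ± 13.8 (SD, n = 3) to 8.54 ± 1.70, and every library at 48 hours lay below every one at 0 hours.

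Hsp90aa1, the inducible form of cytosolic HSP90 (chromosome 12, 110690605 to 110702728, minus strand), was at 74.6, 71.0 and 103 CPM at 0 hours and at 146, 130 and 156 CPM at 48 hours. It rose 1.73-fold, by 0.79 ± 0.153 on the log2 scale, with an adjusted p of 0.00221. Of the 50-base stretches in its exons, 47.5% also occur in other annotated genes, foremost the gene model Gm12346, so its reads may have been split or lost in counting. Hsp90ab1, its constitutive paralog, was at 579, 477 and 625 CPM and then 441, 501 and 617 CPM, with overlapping libraries. Its log2 fold change was -0.11 ± 0.163 with an adjusted p of 0.629, and 0.10 when scaled by library size alone. The ratio of Hsp90ab1 to Hsp90aa1 RPKM was 10.2, 8.80 and 7.95 in the libraries of 0 hours and 3.97, 5.07 and 5.20 in those of 48 hours. The constitutive form was thus the more abundant in every library, by a smaller margin after PHx.

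The remaining HSP90 genes did not pass. Trap1, the HSP90 of mitochondria, was at 124, 99.5 and 129 CPM at 0 hours and lower in each library at 48 hours, at 96.3, 93.2 and 92.0 CPM. It narrowly missed the threshold (-0.32 ± 0.121, adjusted p = 0.0547), and passed with DESeq2 (adjusted p = 0.0457), TMM from protein-coding genes (0.021) or a filter at 50 counts (0.0329), and in edgeR without replicate 2 at 0 hours (-0.44, adjusted p = 0.00617). Stip1, which hands clients from HSP70 to HSP90, was at 71.3 ± 19.3 CPM (SD, n = 3) and 91.9 ± 6.57 CPM (0.37 ± 0.181 on the log2 scale, adjusted p = 0.133 by edgeR). Without replicate 2 at 0 hours, the log2 fold change of Stip1 was 0.15. Ahsa1, which speeds the ATPase of HSP90, was at 29.5 ± 3.91 CPM and 31.7 ± 1.66 CPM. Its log2 fold change was 0.10 ± 0.119.

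Because Fkbp5 is itself a known target of the glucocorticoid receptor, 8 other such targets were set beside it, of which 7 could be tested. Of these, 1 rose and 3 fell, where 21.4% and 19.3% of all genes tested did so. Per1, a clock gene, went from 52.3 ± 3.31 CPM (SD, n = 3) to 118 ± 13.1 CPM, a log2 fold change of 1.17 ± 0.117 (SE). Tsc22d3, the anti-inflammatory leucine zipper protein induced by glucocorticoids, went from 145 ± 34.6 CPM to 50.5 ± 11.6 CPM and fell by 1.52 on the log2 scale. The list moved in both directions, with a median log2 fold change of -0.37. What part the receptor had in the rise of Fkbp5 was not tested.

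Of the HSP70 and HSP110 genes, 2 of 8 rose and 6 did not pass, where 21.4% of all genes tested rose. Hspa14, an HSP70 relative that sits on ribosomes with a J-domain partner and meets new chains as they emerge (chromosome 2, 3488850 to 3512814, minus strand), was at 7.66, 6.90 and 6.84 CPM at 0 hours. At 48 hours it was at 17.5, 16.2 and 15.3 CPM. The libraries within each time point were close together and the time points far apart. The log2 fold change was 1.19 ± 0.125 and the adjusted p was 4.35e-05. On the same strand, 7.91% of its exon bases are shared with the gene model Gm45902.

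Hspa2, best known as the HSP70 of developing sperm, was near the bottom of the range in liver. Its 3 libraries at 0 hours held 1.77, 0.741 and 1.33 CPM and those at 48 hours 4.25, 2.71 and 3.51 CPM, a rise of 2.73-fold (1.45 ± 0.307 on the log2 scale, adjusted p = 0.00376). The lowest later value was above the highest earlier one, on a level of few reads. Hspa8, the most abundant of the HSP70 genes among the 38, was at 778, 659 and 939 CPM and then 914, 850 and 1159 CPM. Its time points overlapped and its log2 fold change of 0.30 ± 0.175 did not pass (adjusted p = 0.202). Similar sequence elsewhere is common for this gene, as 39.4% of its 50-base stretches occur in other genes, foremost the gene model Gm15459. Hspa4, an HSP110 exchange factor, and Hspa9 also did not pass, at 93.3 ± 12.9 and 102 ± 9.04 CPM (SD, n = 3) for Hspa4 and at 254 ± 28.9 and 280 ± 25.3 CPM for Hspa9. Their log2 fold changes were 0.12 and 0.14.

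**Figure D3:**
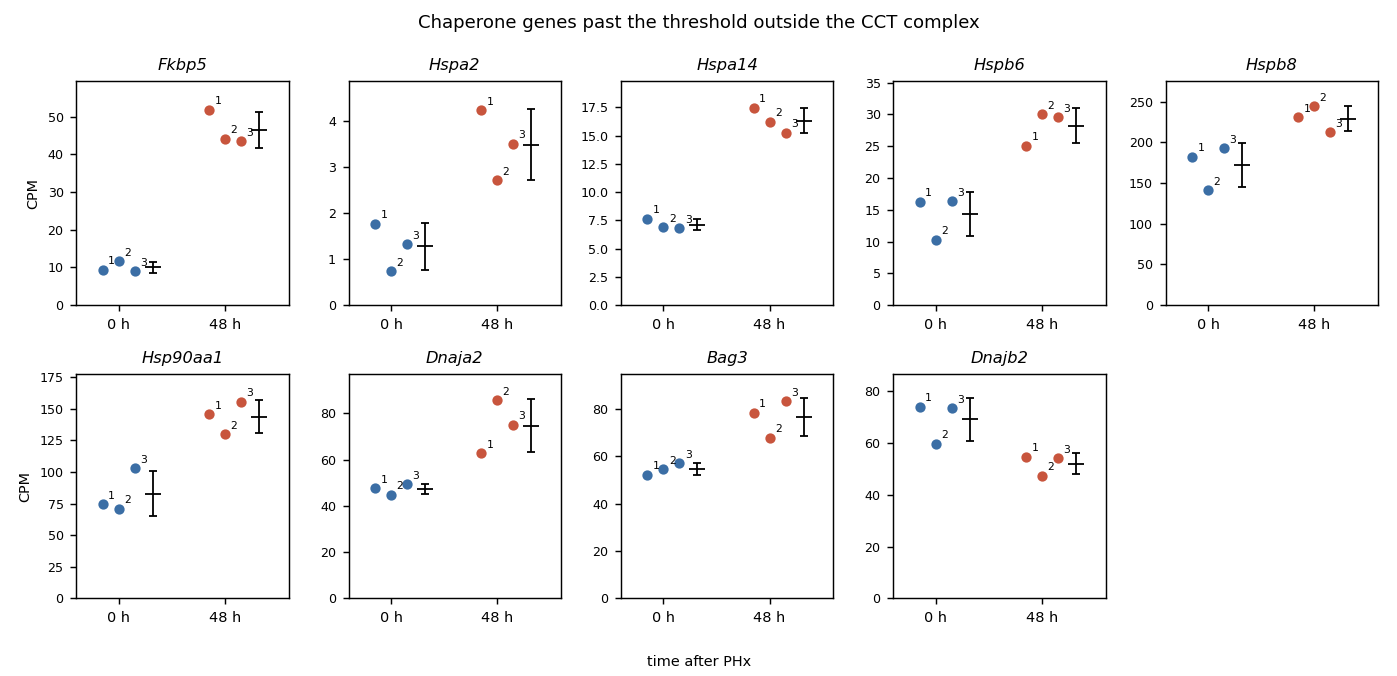
CPM in each library (numbered points) for the 9 genes outside CCT that passed the threshold, at 0 hours and 48 hours after PHx, with the mean and SD of 3 libraries beside the points. In every panel the time points do not overlap; Dnajb2 is the 1 gene that is lower at 48 hours.

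The heat-inducible genes Hspa1a, Hspa1b, Hsph1, Dnajb1 and Hspb1 are described together, a grouping made after it was known that none of them passed the threshold in edgeR's test of all libraries. Other heat-inducible genes did pass, among them Hsp90aa1 and Bag3, so the grouping does not stand for the inducible genes as a class. Hspa1a and Hspa1b are neighbouring genes on chromosome 17 for nearly identical HSP70 proteins, and 66.3% and 62.3% of their 50-base stretches occur in another gene, foremost each other, so counts may pass between them. Hspa1b was at 6.74, 25.1 and 10.5 CPM at 0 hours and at 12.3, 4.39 and 25.5 CPM at 48 hours. Its highest and lowest libraries were several-fold apart within each time point. The coefficient of variation was 68.7% at 0 hours and 75.8% at 48 hours, and the difference between time points was -0.01 ± 0.564 on the log2 scale. Hspa1a was at 0.443, 2.09 and 0.903 CPM and then at 1.69, 0.867 and 1.80 CPM, with a log2 fold change of 0.33 ± 0.479. On the opposite strand, 19.0% of its exon bases overlap the gene model Gm20481. Replicate 2 was the highest library for both genes at 0 hours and replicate 2 the lowest for both at 48 hours. With the counts of both genes summed, the log2 fold change was 0.02 (adjusted p = 0.978). Leaving out 1 library at a time moved Hspa1b between -0.76 (without replicate 3 at 48 hours) and 0.69 (without replicate 2 at 0 hours), and Hspa1a between -0.05 (without replicate 1 at 0 hours) and 1.08 (without replicate 2 at 0 hours), with no call.

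Hsph1, the inducible HSP110, was at 40.1, 54.8 and 50.5 CPM at 0 hours and at 27.9, 19.2 and 45.3 CPM at 48 hours. Replicates 1 and 2 at 48 hours lay below all earlier libraries, and replicate 3 lay among them. The difference of -0.65 ± 0.255 had an adjusted p of 0.0633, and without replicate 3 at 48 hours it was -1.04 with an adjusted p of 0.00212. With all libraries kept, Hsph1 passed as lower with DESeq2 (adjusted p = 0.0259), limma-voom (0.0435), TMM from protein-coding genes (0.0485), no filter (0.000668) and a replicate block (0.0333). Dnajb1, the inducible J-domain partner of Hspa1a, was at 20.97, 47.1 and 36.3 CPM and then at 25.8, 19.5 and 24.2 CPM. Its libraries overlapped through replicate 1 at 0 hours, and its log2 fold change was -0.59 ± 0.24 (adjusted p = 0.0748), or -0.86 without that library (adjusted p = 0.00337). It also passed as lower in all libraries with DESeq2 (adjusted p = 0.0411) and without a filter (0.00201). Hspb1, a small heat shock protein that binds actin and unfolded clients, was at 6.98, 8.15 and 9.13 CPM at 0 hours and at 3.24, 2.41 and 16.1 CPM at 48 hours. Here 1 library decided the value. The log2 fold change was -0.16 ± 0.559 with all libraries and -1.51 without replicate 3 at 48 hours (adjusted p = 0.00046). Its sequence also recurs, with 50.1% of its 50-base stretches found in other genes, foremost the pseudogene Hsp25-ps1.

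At 48 hours, replicate 3 held the highest value for 4 of these 5 genes and replicate 2 the lowest for all 5, a description of genes picked with their values known. Over the 38 genes replicate 3 was highest for 17 and replicate 2 lowest for 14, and over all genes they were so for 34.1% and 30.8%. Immediate early genes, which like heat shock genes answer quickly to stress on cells, were measured beside them. Over 12 such genes, the sum was 2553, 2053 and 2306 CPM at 0 hours and 1287, 1820 and 1229 CPM at 48 hours, lower in each later library. Of the 12, 3 were higher and 5 lower, where 21.4% and 19.3% of all genes tested were. Ier3, an early survival gene, rose by 2.84 ± 0.395 on the log2 scale, from 0.204 ± 0.105 to 1.48 ± 0.379 CPM, while Dusp1, a phosphatase that shuts off stress kinases, fell by 1.40 from 184 ± 7.97 to 69.8 ± 15.8 CPM (SD, n = 3). Replicate 2 at 0 hours and replicate 3 at 48 hours, the libraries highest in Hspa1b, had the lowest sums of immediate early genes in their groups. What part the isolation of the cells had in these values was not tested.

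**Figure D4:**
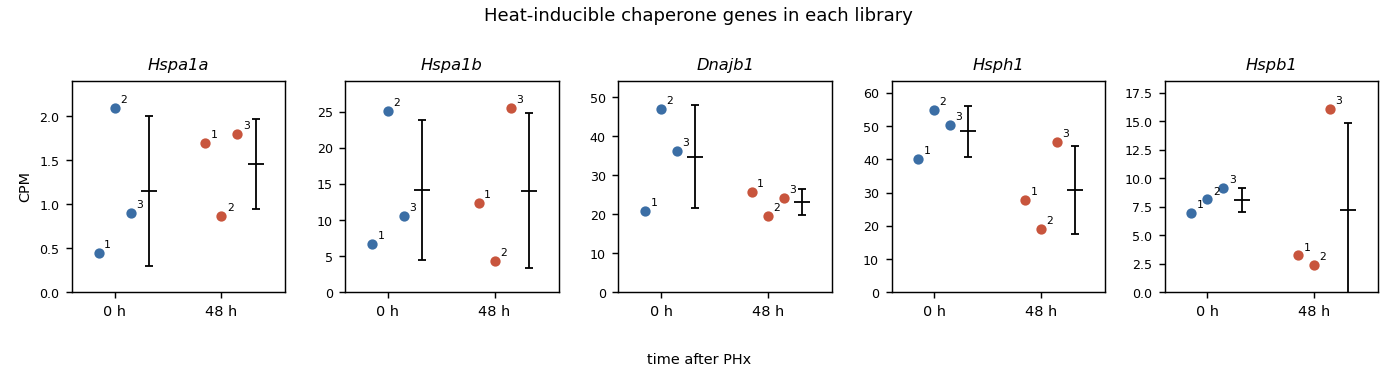
CPM in each library (numbered points) for 5 heat-inducible genes at 0 hours and 48 hours after PHx, with the mean and SD of 3 libraries beside the points (the lower SD bar of Hspb1 at 48 hours runs past 0 and is cut off). Replicate 2 is highest at 0 hours for Hspa1a, Hspa1b, Dnajb1 and Hsph1, and replicate 3 is highest at 48 hours in every panel but that of Dnajb1.

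Small heat shock proteins hold unfolded clients without using ATP, and 2 of the 4 rose, where 21.4% of all genes tested did so. Hspb6, a partner of other small heat shock proteins that is best known from muscle (chromosome 7, 30552178 to 30555443, plus strand), was at 16.2, 10.3 and 16.3 CPM at 0 hours and at 25.1, 30.1 and 29.6 CPM at 48 hours. It rose 1.98-fold, with no overlap (0.98 ± 0.172 on the log2 scale, adjusted p = 0.00123). On the opposite strand, 5.44% of its exon bases are shared with Proser3 and Lin37. Hspb8, which works with Bag3 to send misfolded proteins to autophagy (chromosome 5, 116408491 to 116422864, minus strand), was at 182, 141 and 193 CPM and then at 231, 244 and 212 CPM. It rose 1.33-fold, by 0.41 ± 0.14 on the log2 scale, with an adjusted p of 0.037. The call was lost without replicate 1 or 2 at 0 hours (adjusted p = 0.0678 and 0.0833) or without replicate 1 or 2 at 48 hours (0.0669 and 0.114), and with a replicate block (0.0668). Cryab, a small heat shock protein of lens and muscle, was at 1.19 ± 0.273 and 1.14 ± 0.0381 CPM (SD, n = 3). Of its exon bases, 17.0% lie opposite Hspb2. Summed over the 4 genes, the level was 196 ± 31.01 CPM and 266 ± 10.3 CPM, most of it Hspb8.

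Among the J-domain proteins and Bag3, 2 of 8 genes rose, 1 fell and 5 did not pass, where 21.4% of all genes tested rose and 19.3% fell. Dnaja2, a cytosolic partner of Hspa8 in refolding (chromosome 8, 85537633 to 85555344, minus strand), was at 47.7, 44.9 and 49.4 CPM at 0 hours. The 48-hour libraries were at 62.9, 85.9 and 75.1 CPM, all above those of 0 hours. It rose 1.58-fold (0.66 ± 0.124 on the log2 scale, adjusted p = 0.00191). Bag3, the exchange factor that joins HSP70 to Hspb8 and to autophagy (chromosome 7, 128523616 to 128546981, plus strand), was at 52.1, 54.4 and 57.0 CPM and then at 78.4, 67.8 and 83.2 CPM. It rose 1.40-fold (0.49 ± 0.109, adjusted p = 0.00495), and both it and its partner Hspb8 were higher in every library at 48 hours than in any at 0 hours. Dnajb2, which passes HSP70 clients that carry ubiquitin to the proteasome (chromosome 1, 75236406 to 75245692, plus strand), went the other way. It was at 73.9, 59.6 and 73.5 CPM and then at 54.6, 47.2 and 54.0 CPM, and fell by 0.41 ± 0.117 on the log2 scale (adjusted p = 0.0182). That call was lost without replicate 1 or 3 at 0 hours (adjusted p = 0.0642 and 0.0625), without replicate 2 at 48 hours (0.0787), and when scaled by library size alone (-0.21, 0.17).

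The other J-domain genes, apart from Dnajb1 described above, differed less. Dnajb6, which keeps polyglutamine proteins soluble and whose promoter holds a triple, was at 31.95 ± 0.854 CPM (SD, n = 3) and 37.9 ± 2.89 CPM, without overlap. Its log2 fold change of 0.25 ± 0.10 did not pass (adjusted p = 0.074). Dnaja1, a cytosolic partner of Hspa8 like Dnaja2, was at 116 ± 18.7 and 130 ± 23.4 CPM (0.17 ± 0.16 on the log2 scale). Dnaja3, the J-domain partner of Hspa9 in mitochondria, was at 78.8 ± 14.6 and 79.1 ± 7.50 CPM. Dnajb4, a relative of Dnajb1 with a single pair of units in its promoter, was at 28.5 ± 3.10 and 26.9 ± 0.831 CPM.

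The factors that bind heat shock elements did not pass. Hsf1, the master factor of the response, was at 26.7, 31.9 and 28.3 CPM at 0 hours and at 26.0, 27.4 and 27.6 CPM at 48 hours. These ranges overlapped (-0.10 ± 0.106 on the log2 scale, adjusted p = 0.481). Hsf2, its relative in development, was at 19.0, 29.2 and 20.7 CPM and then at 25.4, 25.5 and 26.4 CPM. The value for replicate 2 at 0 hours stood above all the others, and without that library the log2 fold change went from 0.17 to 0.37 and passed (adjusted p = 0.0169). Hsf1 is activated as a protein, which RNA does not measure.

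Set beside the promoters, the 4 genes with a triple (Dnajb6, Hspd1, Hspe1 and Hsph1) included 0 that rose and 0 that fell, and 12 of the 27 genes with a promoter but no triple rose. With the looser pair, 5 of 15 genes rose and none fell, namely Bag3, Cct2, Cct5, Hspb6 and Hspb8, and of the 16 without a pair 7 rose and 1 fell. At the 40.7% of all genes called in either direction, 4 genes, of which Hspd1 and Hspe1 share 1 run of units, are too few to set apart.

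In the CCT chaperonin, 5 of 7 subunits rose, none fell, and 2 did not pass, where 21.4% of all genes tested rose. The median log2 fold change was 0.38. This was the largest share called among the groups of the 38 genes, a ranking made with the values known. Differences between groups were not tested, and the calls of Cct3 and Cct8 depended on single libraries. Cct7 (chromosome 6, 85451514 to 85468475, plus strand) changed most, from 35.6, 28.1 and 34.4 CPM at 0 hours to 57.6, 54.1 and 49.1 CPM at 48 hours. All later libraries were higher (0.71 ± 0.119 on the log2 scale, adjusted p = 0.000911). Cct5 was at 52.1, 34.6 and 43.2 CPM and then at 63.5, 61.4 and 60.7 CPM, a rise of 0.52 ± 0.139 with an adjusted p of 0.0134. Cct2 was at 50.3, 37.9 and 45.8 CPM and then at 64.6, 56.5 and 60.3 CPM, a rise of 0.44 ± 0.121 (adjusted p = 0.0155). In each of these genes replicate 2 was the lowest library at 0 hours and the time points did not overlap.

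Cct3 and Cct8 rose by less. Cct3 went from 38.7 ± 4.80 CPM (SD, n = 3) to 50.4 ± 4.08 CPM, by 0.38 ± 0.119 on the log2 scale (edgeR adjusted p = 0.0259). Cct8 went from 56.9 ± 5.76 to 72.9 ± 3.06 CPM, by 0.36 ± 0.108 (adjusted p = 0.0229). Both calls depended on single libraries, as Cct3 did not pass without replicate 2 at 0 hours (adjusted p = 0.0534) or replicates 1 or 2 at 48 hours (0.0877 and 0.0534), and Cct8 without replicates 1 or 2 at 48 hours (0.0588 and 0.0697) or with a replicate block (0.0506). Cct4 was higher in each later library without passing, at 34.1 ± 3.30 and 40.5 ± 1.35 CPM (0.25 ± 0.105, adjusted p = 0.0839 by edgeR).

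Tcp1, for which the ring was named, was the 1 subunit of the 7 that was not higher in the later libraries. It was at 95.6, 104 and 103 CPM at 0 hours and at 90.4, 87.9 and 90.8 CPM at 48 hours, lower in each later library, with a log2 fold change of -0.17 ± 0.0987 (adjusted p = 0.204) and of 0.03 when scaled by library size alone. On the opposite strand, 14.2% of its exon bases overlap Mrpl18 and Acat3, and whether counting used the strand is not given in the sources used here. The eighth position of the ring is taken by Cct6a, which was not among the 38 and was looked up after the others had been seen. It was at 54.3, 45.1 and 57.9 CPM and then at 73.6, 78.8 and 68.9 CPM, and rose by 0.49 ± 0.118 (adjusted p = 0.00734). The other Cct6 gene, Cct6b, had few reads, at 0.647, 0.322 and 0.482 CPM and then at 0.267, 0.252 and 0.0571 CPM. It was lower in each later library and did not pass (-1.31 ± 0.508, adjusted p = 0.0616 by edgeR). Summed CPM of the 7 subunits was 351 ± 29.0 at 0 hours and 430 ± 16.1 at 48 hours (SD, n = 3), with no overlap.

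**Figure D5:**
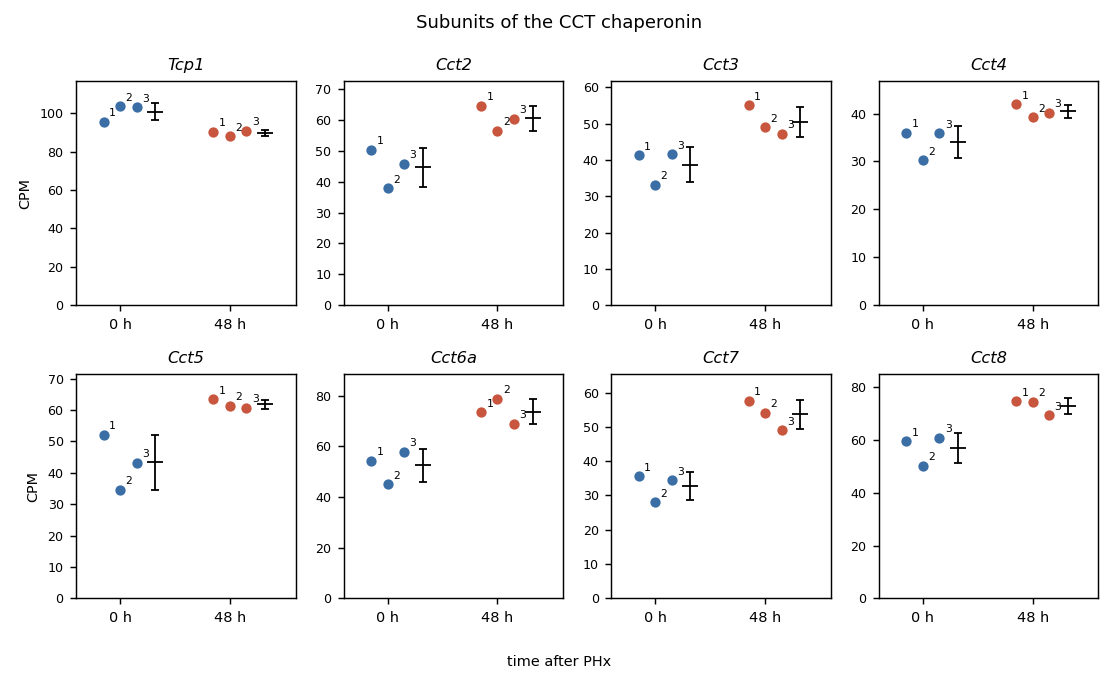
CPM in each library (numbered points) for the subunits of the CCT chaperonin, Tcp1 to Cct8 with Cct6a added, at 0 hours and 48 hours after PHx, with the mean and SD of 3 libraries beside the points. In all panels but that of Tcp1 the libraries at 48 hours lie above those at 0 hours.

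The mitochondrial chaperonin did not pass in either of its parts. Hspd1, the barrel, was at 192, 165 and 220 CPM at 0 hours and at 226, 249 and 238 CPM at 48 hours, higher in each later library (0.30 ± 0.131 on the log2 scale, adjusted p = 0.0899). Hspe1, the lid, was at 29.2, 32.4 and 41.8 CPM and then at 31.5, 32.2 and 33.4 CPM, with overlap (-0.09 ± 0.133, adjusted p = 0.618). The ratio of Hspe1 to Hspd1 RPKM was 0.272, 0.352 and 0.341 in the earlier libraries and 0.250, 0.232 and 0.252 in the later ones, without overlap, and these genes share the promoter stretch printed above. Both have copies elsewhere, as 42.1% of the 50-base stretches of Hspd1 and 22.8% of those of Hspe1 occur in other genes.

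Beyond the 38 genes, 71 further genes of cytosolic and mitochondrial protein folding were counted, of which 67 could be tested. Of these, 15 rose and 3 fell, a median log2 fold change of 0.17, where 21.4% and 19.3% of all genes did so. Scaled by library size alone, 36 rose and 1 fell, and of all genes 5308 rose and 2110 fell. Prefoldin, which carries actin and tubulin to CCT, and other CCT genes had 3 of 10 higher and none lower, led by Vbp1, a prefoldin subunit that went from 1.86 ± 0.0842 to 5.43 ± 1.02 CPM (SD, n = 3; 1.54 ± 0.202 on the log2 scale). Other HSP90 co-chaperones had 3 of 14 higher and 1 lower, with Nudc, a co-chaperone named for its part in nuclear movement, at 0.87 ± 0.135 and Cdc37l1 at -0.27 ± 0.0947. Other HSP70 genes and exchange factors had 3 of 14 higher and 1 lower, with Hspa4l, an HSP110 relative, at 0.67 ± 0.129 and Bag4 at -0.40 ± 0.118. Other J-domain genes had 4 of 14 higher and none lower, led by Dnajc9, which also chaperones histones and went from 1.68 ± 0.45 to 11.0 ± 0.434 CPM (SD, n = 3; 2.71 ± 0.201).

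Tubulin folding cofactors had 1 of 5 higher, Tbcb at 0.70 ± 0.21 on the log2 scale. Of 5 further small heat shock proteins and regulators tested, 1 was higher, Hsf5, on 0.551 ± 0.162 and 1.26 ± 0.12 CPM (SD, n = 3). Mitochondrial quality control genes had none of 5 higher and 1 lower, Clpx, the unfoldase of a matrix protease, which fell by 1.31 ± 0.126 from 149 ± 18.7 to 60.4 ± 4.58 CPM. In the endoplasmic reticulum, none of 13 chaperones rose and 1 fell, Hspa5, the HSP70 of that compartment, by 0.53 ± 0.145 on the log2 scale, from 697 ± 60.0 to 484 ± 66.6 CPM. Its level thus moved opposite to those of Hspa14 and Hspa2 in the same family.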

How the data were processed

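The data are bulk RNA-Seq of 6 hepatocyte preparations, 3 per time point. The authors deposited, per library, raw counts of reads per gene without normalization. The submitters' processing notes list FastQC 0.11.5, Trim Galore 0.6.4, STAR 2.6, HTSeq 0.12.4, DESeq2 and the build mm10. The strand setting and counting mode are not given in the sources used here. The files list 0 reads as unaligned, poor in quality or placed more than once, so reads shared by near-identical genes may have been lost.

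All 55450 gene identifiers matched GENCODE M21 (GRCm38). The 17037 genes that reached 10 counts in 3 or more libraries entered edgeR 4.0.16 under R 4.3.3 (TMM factors, glmQLFit and glmQLFTest, two-sided), with time point as the only term. P-values were adjusted over all genes tested by the Benjamini-Hochberg method and called under 0.05. The standard error is the log2 fold change divided by the square root of the F statistic. CPM use TMM-scaled totals, and RPKM divide CPM by kilobases of union exon length. The script was tested on simulated data. Alternatives were DESeq2 1.42.0, limma-voom (limma 3.58.1), other scalings and filters, a replicate block and leaving out each library. All 38 genes were named, and from each list of further folding genes, endoplasmic reticulum chaperones, immediate early genes and glucocorticoid receptor targets the largest change among genes called higher and among those called lower. The genes and lists were chosen with earlier results of these data known. Replicate pairs of a time point differed beyond sampling noise, with a mean chi-square of 25.8 to 76.1 per gene. P-values set the difference between time points against the spread between these preparations, which the study describes as biological replicates.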

Additional observations from a re-analysis of the deposited data

How the results depend on the processing

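Of the 14 chaperone genes called, 10 kept their call under all 14 alternatives (DESeq2, limma-voom, 3 scalings, 2 filters, a replicate block and 6 fits without 1 library), 4 lost it under at least 1 (Hspb8, Cct3, Cct8 and Dnajb2), and none reversed. The number of these genes higher was 13, with a range of 10 to 13 without 1 library, 18 by library size alone and 11 with the replicate block. The number lower was 1, and became 4 by DESeq2, 3 with TMM from protein-coding genes, 3 without a filter, 2 by limma-voom, 2 at a filter of 50 counts, 2 with the replicate block, 0 by library size alone and 0 to 3 without 1 library. Of the 24 genes not called, 10 gained a call under some alternative and 12 changed sign. By library size alone, 5 of these 10 gained a call as higher, Hspa8 (0.51, adjusted p = 0.0396), Stip1 (0.57, 0.0241), Hspd1 (0.51, 0.0107), Dnajb6 (0.45, 0.00783) and Cct4 (0.45, 0.00508), and the others, Trap1, Hsph1, Dnajb1, Hspb1 and Hsf2, gained theirs under the settings given with them. Scaling by library size alone moved the median log2 fold change of all genes to 0.20 and the share of higher genes among calls from 52.5% to 71.6%, with 2110 genes lower in place of 3288. It gave 36 further chaperone genes higher and 1 lower, in place of 15 and 3, and without 1 library the number lower was 1 to 3. Under it, genes not called changed sign, to 0.19 for Hspa1b, 0.10 for Hsp90ab1, 0.064 for Hspb1, 0.15 for Cryab, 0.11 for Hspe1, 0.12 for Dnajb4, 0.10 for Hsf1 and 0.034 for Tcp1. Dnaja3 was at -0.0036 by DESeq2 and by RLE factors, -0.044 with TMM from protein-coding genes, -0.011 without a filter and -0.0075 at a filter of 50 counts. Hspa1b was at 0.022 with the Hspa1a counts added. Without 1 library, ranges that crossed 0 were -0.050 to 1.08 for Hspa1a, -0.76 to 0.69 for Hspa1b, -0.0084 to 0.18 for Ahsa1, -0.0079 to 0.38 for Fkbp4, -1.51 to 0.25 for Hspb1, -0.18 to 0.14 for Cryab, -0.21 to 0.061 for Hspe1 and -0.15 to 0.10 for Dnaja3. Scaling by library size alone leaves out the TMM factors, which were 0.914 to 0.950 at 0 hours and 1.018 to 1.105 at 48 hours. Why the factors differed, and the cause of the other shifts, was not tested. Same-numbered libraries did not deviate together (r = 0.0382, -0.108 and -0.178 across genes), so the numbers were not taken as pairs, and under the replicate block Hsph1 gained a call (adjusted p = 0.0333). Cryab had too few counts for the filter of 50.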
